A study of Mus musculus with 36 samples.

Results

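The cell cycle genes described here are 44 mouse genes chosen by name and sorted by phase. They comprise 19 genes of the G1/S transition and DNA synthesis (Mcm2 to E2f1), 20 genes of G2 and mitosis (Mki67 to Nusap1) and 5 inhibitors of cyclin-dependent kinases (Cdks): Cdkn1a, Cdkn1b, Cdkn1c, Cdkn2a and Cdkn2b. All 44 had a row in the count table of each population, which listed 20181 genes for Lrig1 GL and 22587 for Lgr5 GL. The filter on low counts kept 42 of the 44 in Lrig1 GL, among 14306 genes tested, and all 44 in Lgr5 GL, among 18025. The members left untested in Lrig1 GL were Cdkn1c and Cdkn2a.

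The libraries were mini-bulk RNA-seq of sorted tdTomato+ epidermal cells from mouse tail skin, made by a full-length Smart-seq2 protocol. Every mouse, unwounded controls included, carried Rosa26-fl/STOP/fl-tdTomato with either Lrig1-EGFP-ires-CreERT2 or Lgr5-EGFP-ires-CreERT2, was adult, and had received 1 topical dose of hydroxytamoxifen before wounding. The sorted cells were therefore the cells labelled from the Lrig1 or Lgr5 promoter and their progeny (GL, Lrig1 in the upper hair follicle and Lgr5 in the follicle bulge), sorted from tissue covering the wound bed together with distal hair follicles. Each population had 3 libraries at each of 6 times: unwounded (0w), 1, 2, 4 and 8 weeks after a first wound (1w, 2w, 4w and 8w pw1) and 1 week after a second wound made at 8 weeks (1w pw2), which gave 36 libraries. No unwounded group was taken at the later times. Time after wounding therefore cannot be told apart from age or from time since labelling. Where the column names carried the replicate numbers of the labels, as in 15 libraries, these numbers are used, and the other 21 are called a, b and c. The study counts mice as the replicates of these data, although the labels do not tie each library to a mouse. The p-values measure the spread between libraries within groups, estimated over all the groups of a model.

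A dividing cell copies its DNA once and then separates the copies, and the genes for both tasks are transcribed in successive waves. E2F factors drive the G1/S wave, which includes the MCM helicase, the nucleotide-making enzymes and cyclin E. The G2/M wave includes cyclin B, Cdk1 and the spindle and kinetochore machinery, and is driven by the MuvB complex with B-MYB and FOXM1. In resting cells the same promoters are held off through E2F sites and CHR elements, and Cdk inhibitors such as p21, p27 and p15 hold the kinases back. Epidermal stem cells of the resting follicle divide rarely and are recruited into division when skin is wounded.

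The promoters show what the phase lists share beyond their names. RefSeq promoters (GRCm38.p6, the build of the counts) were matched for 37 of the 44 members and gave 41 promoter windows. Those without an entry were Mcm4, Gins2, Ccne2, Ccna2, Aurkb, Tpx2 and Cdkn1c. The 250 bases before each start were searched on both strands for the CHR forms TTTGAA and TTTAAA, for the CCAAT box bound by NF-Y, and for the E2F sites TTTCGCGC, TTTGGCGC and TTTCCCGC. The stretches below end at the base before the RefSeq start and are shown because Ube2c, Cdc20 and Cdkn1b passed a test, Cdk1 and Ccnb1 form the mitotic kinase, and Mcm6 stands for the E2F type. They are written 5′ to 3′ along the gene, with every match, on either strand, in capitals. They lie at chr2:164769819-164769928 on the plus strand (Ube2c), chr4:118437344-118437453 on the minus strand (Cdc20), chr10:69352913-69353022 on the minus strand (Cdk1), chr13:100786487-100786596 on the minus strand (Ccnb1), chr1:128359706-128359825 on the minus strand (Mcm6) and chr6:134920291-134920400 on the plus strand (Cdkn1b).
Ube2c: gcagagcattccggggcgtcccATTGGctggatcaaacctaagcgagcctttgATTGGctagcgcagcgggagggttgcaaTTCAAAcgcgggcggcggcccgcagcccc
Cdc20: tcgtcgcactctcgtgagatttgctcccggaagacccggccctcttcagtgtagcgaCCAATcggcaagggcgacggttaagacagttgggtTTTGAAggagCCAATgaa
Cdk1: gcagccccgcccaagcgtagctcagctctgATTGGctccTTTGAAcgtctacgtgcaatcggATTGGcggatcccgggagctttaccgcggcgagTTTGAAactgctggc
Ccnb1: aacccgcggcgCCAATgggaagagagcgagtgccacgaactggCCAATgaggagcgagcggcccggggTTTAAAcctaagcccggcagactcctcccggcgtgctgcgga
Mcm6: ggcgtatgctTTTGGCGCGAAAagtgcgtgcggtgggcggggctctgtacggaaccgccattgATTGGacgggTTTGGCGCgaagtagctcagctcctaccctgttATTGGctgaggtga
Cdkn1b: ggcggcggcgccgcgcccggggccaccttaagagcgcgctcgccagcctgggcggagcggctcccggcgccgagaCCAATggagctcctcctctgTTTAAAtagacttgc

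Of the 17 G2/M promoters, 7 held TTTGAA (41.2%), as did 1 of the 18 G1/S promoters (5.56%) and 16% of all 32851 promoters searched. The second CHR form was in 23.5% of the G2/M promoters, 11.1% of the G1/S promoters and 12.1% of all. A CCAAT box was in 15 of the 17 G2/M promoters (88.2%), in 66.7% of the G1/S promoters and in 33.8% of all. An E2F site of the 3 forms was in 5 of the 18 G1/S promoters (27.8%), in 5.88% of the G2/M promoters and in 1.53% of all. These are letter matches in a fixed window, and some RefSeq genes give more than 1 window.

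**Figure D1:**
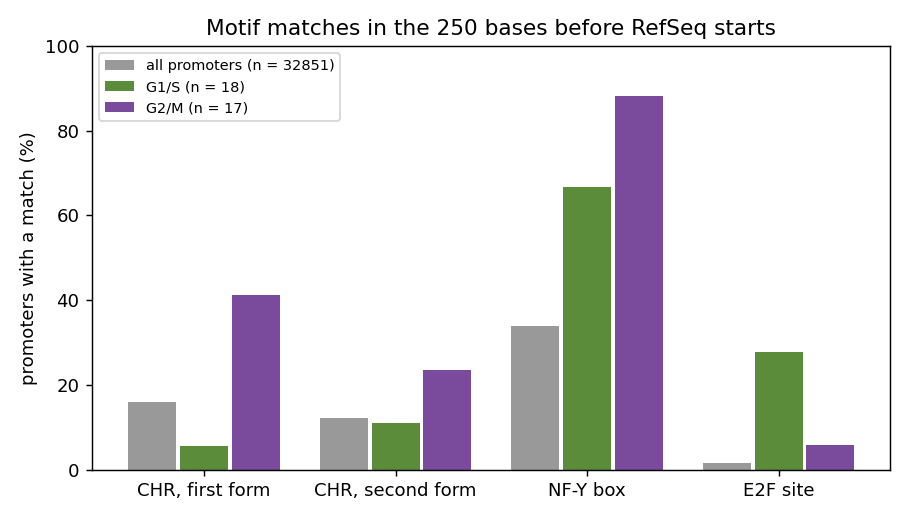
Share of promoters with a match to each motif in the 250 bases before the RefSeq start (percent, bars from 0), for all promoters (grey, n = 32851), G1/S members (green, n = 18) and G2/M members (purple, n = 17). The first CHR form and the NF-Y box (CCAAT) have their tallest bars in the G2/M members (41.2% and 88.2%), and the E2F sites in the G1/S members (27.8%).

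Lrig1 GL libraries held 765252 to 3365666 counts each and Lgr5 GL libraries 1297798 to 6960537. Levels are given as CPM, each gene's count relative to its library total after trimmed-mean (TMM) scaling and expressed per 1e+06, and the tables of the populations were scaled apart, so levels are not tested between them. A single transcript, Gm12415, took 12% to 52.1% of the counts in the Lgr5 GL libraries. Keratinocyte markers (Krt5, Krt14, Krt15, Trp63, Itga6 and Epcam) were abundant in every library. Krt15 had the most counts of them in Lgr5 GL (855946) and Krt14 in Lrig1 GL (445384), so their sums mainly follow a few keratins. The 4 immune markers of 12 that had a row summed to at most 35.5 CPM in any Lgr5 GL library. In bulk libraries fewer dividing cells and less RNA per cell cannot be told apart. A pair of unwounded libraries stood apart for these genes. In Lrig1 GL, 0w replicate 2 held the lowest value of its group in 36 of the 44 members, with a median over the G1/S members of 9.34 CPM against 84.7 and 58.9 CPM in replicates 1 and 3. In Lgr5 GL, 0w replicate c had a G1/S median of 57.2 CPM against 27.9 and 20.5 CPM in a and b, and a G2/M median of 23.3 CPM against 11 and 10.3 CPM. Some medians and counts against 0w are therefore also given without single 0w libraries. Among the wounded Lgr5 GL libraries, 4w pw1 replicate a and 1w pw2 replicate 2 each held the lowest value of their group in 33 of the 44 members. Medians without these wounded libraries are not given.

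The question of the time course was which genes differed at any time from the unwounded state. In Lgr5 GL the median level of the mitotic genes was highest 1 week after the first wound and lowest at 8 weeks, as a description with no test. Single members departed from it: mean Cenpf was 37.5 CPM at 1w pw1 and 56.8 CPM at 4w pw1, and mean Top2a 79.9 CPM at 1w pw1 and 110 CPM at 2w pw1. The median over the 20 G2/M members was 10.3 to 23.3 CPM at 0w, 46.4 to 74.9 CPM at 1w pw1, 14.1 to 41.6 CPM at 2w pw1, 12.2 to 38.8 CPM at 4w pw1, 3.53 to 11.9 CPM at 8w pw1 and 14.6 to 39.3 CPM at 1w pw2. The 3 libraries at 1w pw1 lay above every library of the other times, and at 8w pw1 the highest library overlapped the lower end of 0w. The median over the 19 G1/S members moved less, from 20.5 to 57.2 CPM at 0w and 33.6 to 68.5 CPM at 1w pw1 to 17.7 to 19.3 CPM at 8w pw1. In Lrig1 GL the G2/M median was 33.7 to 86.2 CPM at 0w, 45.2 to 80.1 CPM at 1w pw1 and 25.5 to 41.8 CPM at 8w pw1, so that these groups overlapped.

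**Figure D2:**
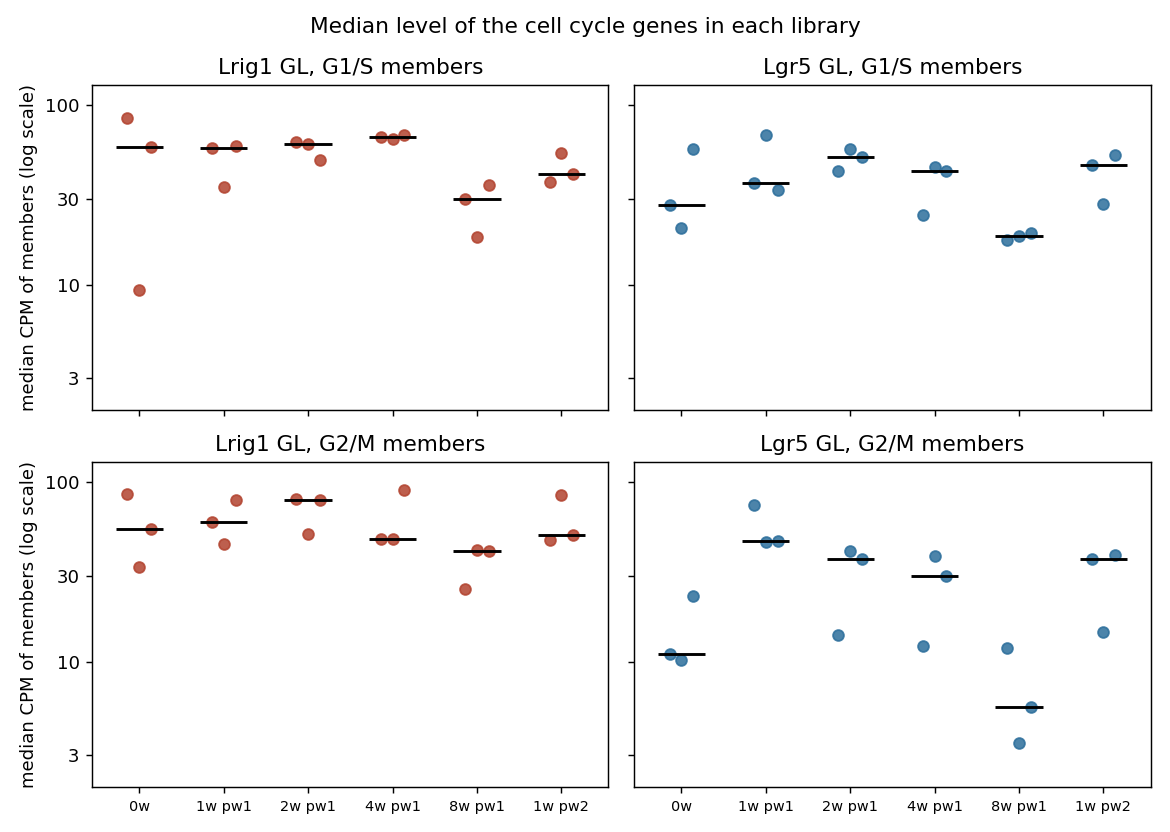
Median CPM (log axis) over the 19 G1/S members (top) and the 20 G2/M members (bottom) in each library of Lrig1 GL (left) and Lgr5 GL (right), by time. Each point is 1 library and each line the median of 3, and the G2/M points of Lgr5 GL at 1w pw1 (46.4 to 74.9) sit above all other times of that population.

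Across the time course, 4 of the 44 members passed in Lgr5 GL (edgeR's quasi-likelihood test with an adjusted p under 0.05, and a largest change against 0w of more than 1 on the log2 scale), where 1.13% of all genes did. They were Aurkb (adjusted p = 0.0386), Ube2c (adjusted p = 0.0447), Cdkn1b (adjusted p = 0.0465) and Cdkn1a (adjusted p = 0.04997). An unadjusted p under 0.05 was reached by 25 of the 44, of which 16 were G2/M members, against 16.9% of all genes. Each of the 4 calls sat close to the threshold. Leaving out each of the 18 libraries in turn kept the call in 5 cases for Aurkb, 4 for Ube2c and 1 each for Cdkn1b and Cdkn1a, with highest adjusted p-values of 0.123, 0.157, 0.1 and 0.167. Without 0w replicate c 8 members were called, of which only Aurkb was among the 4: Pcna, Rrm1, Rrm2, Kif23, Ccnb2, Cdk1, Aurkb and Top2a. Here and below, the share of all genes is given for edgeR's main fits of all libraries only. Counts from other fits, such as DESeq2's or those without a library, therefore have no background beside them.

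In Lrig1 GL no member passed across the time course, where 1.63% of all genes did. DESeq2's likelihood ratio test called 4 (Cdc20, Gins2, Cdkn1a and Cdkn1b). An unadjusted p under 0.05 was reached by 7 members (Cdkn1a, Cdc20, Cdkn1b, Gins2, Ube2c, Cdk1 and Mcm3) of 42, against 20.5% of all genes. The smallest adjusted p was 0.0738, for Cdkn1a. Without 0w replicate 2 the test called Gins2, without 2w pw1 replicate c Cdkn1b, and without 4w pw1 replicate c Cdkn1a.

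**Figure D3:**
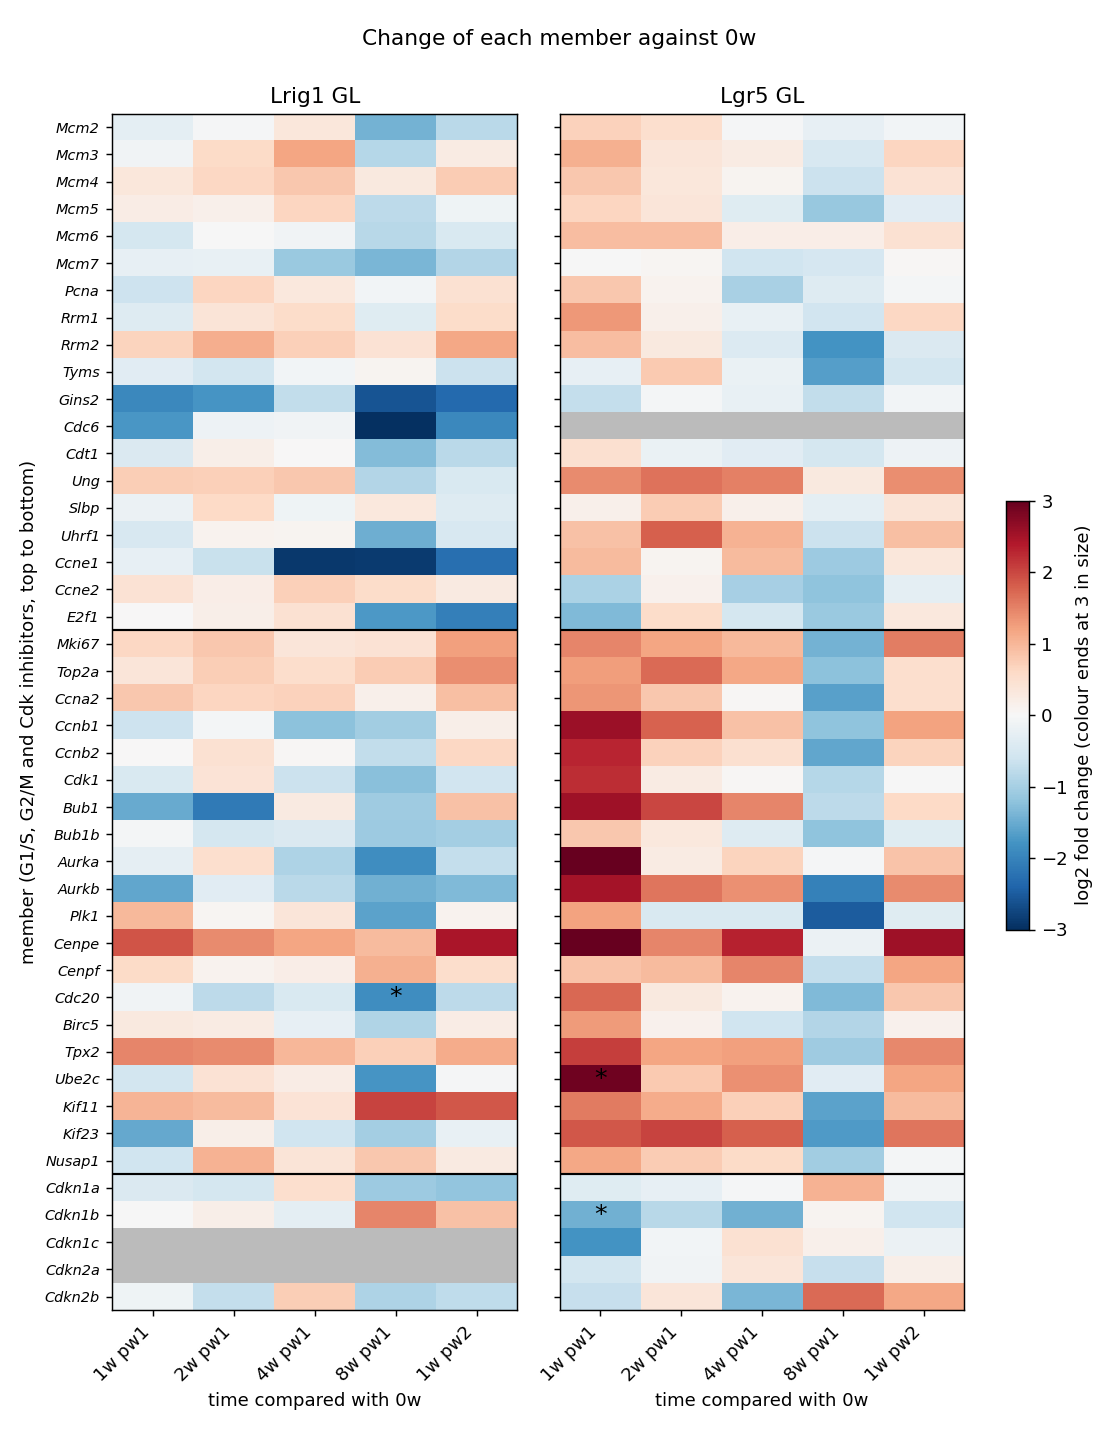
Log2 fold change of each member against 0w (colour, red higher and blue lower, ends at 3 in size) for each later time in Lrig1 GL (left) and Lgr5 GL (right). Asterisks mark the pairs that passed (Ube2c and Cdkn1b at 1w pw1 in Lgr5 GL, Cdc20 at 8w pw1 in Lrig1 GL), and grey marks members with 3 counts or fewer over the 0w libraries (Cdkn1c and Cdkn2a in Lrig1 GL, Cdc6 in Lgr5 GL).

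One week after the first wound, Lgr5 GL cells had more Ube2c RNA and less Cdkn1b RNA than unwounded cells. Ube2c, the ubiquitin-conjugating enzyme of the anaphase-promoting complex, was at 16.1, 9.55 and 12.4 CPM at 0w and at 139, 70.2 and 77.4 CPM at 1w pw1. The groups did not overlap, and Ube2c rose by 2.91 on the log2 scale (SE 0.65, adjusted p = 0.0367). Part of this gene, 22.8% of its exon bases, is shared with Tnnc2 on the opposite strand, and the counting is not stated to use strand. Cdkn1b, which encodes the Cdk inhibitor p27, was at 271, 286 and 314 CPM at 0w and at 69.8, 138 and 113 CPM at 1w pw1. All 3 wounded libraries lay below all 3 unwounded ones, and Cdkn1b fell by 1.45 on the log2 scale (SE 0.34, adjusted p = 0.0438). These were the 2 members called of 44, against 1.29% of all genes.

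The other mitotic members pointed the same way without passing. All 20 G2/M members had a positive fitted change at 1w pw1, with a median log2 fold change of 1.79 against -0.08 over all genes tested. All 3 wounded libraries were above all 3 unwounded ones in 15 of the 44 members, 14 of them G2/M, against 9.98% of all genes. Of the 44, 17 reached an unadjusted p under 0.05, 16 of them higher, against 18.6% of all genes. Aurkb, the kinase of the chromosomal passenger complex, was at 6.35, 6.43 and 17.9 CPM at 0w and at 78.6, 52.1 and 41.4 CPM at 1w pw1 (log2 fold change 2.5, SE 0.69, adjusted p = 0.0746). Cdk1, the kinase that drives entry into mitosis, was at 10.2, 7.68 and 85.8 CPM at 0w and at 201, 175 and 102 CPM at 1w pw1 (log2 fold change 2.22, SE 0.84, adjusted p = 0.169). Here 0w replicate c stood near the wounded libraries and the other unwounded libraries far below. Its partner cyclin B1, Ccnb1, was at 18.6, 10.8 and 26.2 CPM and at 117, 75.9 and 137 CPM (log2 fold change 2.58, SE 0.91, adjusted p = 0.145).

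The proliferation antigen gene Mki67 was at 2.95, 44.2 and 34.8 CPM at 0w and at 129, 47.6 and 50.8 CPM at 1w pw1 in Lgr5 GL. Top2a, which untangles replicated DNA, was at 11.8, 15.1 and 75.5 CPM and at 132, 29.4 and 78.4 CPM. The unwounded and wounded libraries of Top2a overlapped, and those of Mki67 did not. Neither gene reached an unadjusted p of 0.05 in this comparison.

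The DNA synthesis genes moved less evenly in the same comparison. Of the 19 G1/S members 14 had a positive fitted change, with a median log2 fold change of 0.80, and 1 of them (Rrm1) had all 3 wounded libraries above the unwounded ones. Pcna, the sliding clamp of DNA polymerase, was at 74.4, 53.5 and 139 CPM at 0w and at 128, 217 and 120 CPM at 1w pw1 (log2 fold change 0.80, SE 0.35, adjusted p = 0.225). Mcm2, a subunit of the replicative helicase, was at 29.7, 38.4 and 53.4 CPM and at 30.7, 132 and 33.6 CPM, with overlapping groups. Rrm2, the regulated subunit of ribonucleotide reductase, was at 50.1, 48.1 and 158 CPM and at 107, 285 and 94.9 CPM. Cyclin E1, Ccne1, had values of 0, 0.208 and 23.4 CPM at 0w and of 22.2, 15.9 and 7.05 CPM at 1w pw1. E2f1, the founding E2F factor, was at 9.08, 7.06 and 31.4 CPM and at 2.28, 5.09 and 11 CPM. Cdc6, which loads the helicase, had 2 counts in all over the 0w libraries, and no fold change is given.

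The calls at 1w pw1 depended on single libraries. Leaving out 0w replicate a, b or c or 1w pw1 replicate 1 took Ube2c to adjusted p-values of 0.0841, 0.123, 0.0575 and 0.124. Leaving out 0w replicate a, b or c or 1w pw1 replicate 1 or 3 took Cdkn1b to 0.0845, 0.102, 0.057, 0.159 and 0.0703. Without 0w replicate c, the unwounded library with the highest cell cycle levels, 5 members passed: Rrm1, Kif23, Cdk1, Aurkb and Top2a. The share of all genes that passed in that fit is not given. With 2 surrogate variables in the model neither Ube2c (adjusted p = 0.195) nor Cdkn1b (adjusted p = 0.188) passed, with the GC trend removed Cdkn1b did not (adjusted p = 0.072), and DESeq2 called 8 members. The summed level of 7 fibroblast markers, of which Sparc had the most counts in Lgr5 GL (24445), was also lower at 1w pw1 (319 to 568 CPM) than at 0w (734 to 1105 CPM). So was the sum of 16 hair shaft and inner root sheath markers (31.6 to 103 CPM against 134 to 770 CPM). Their part in the result was not tested.

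**Figure D4:**
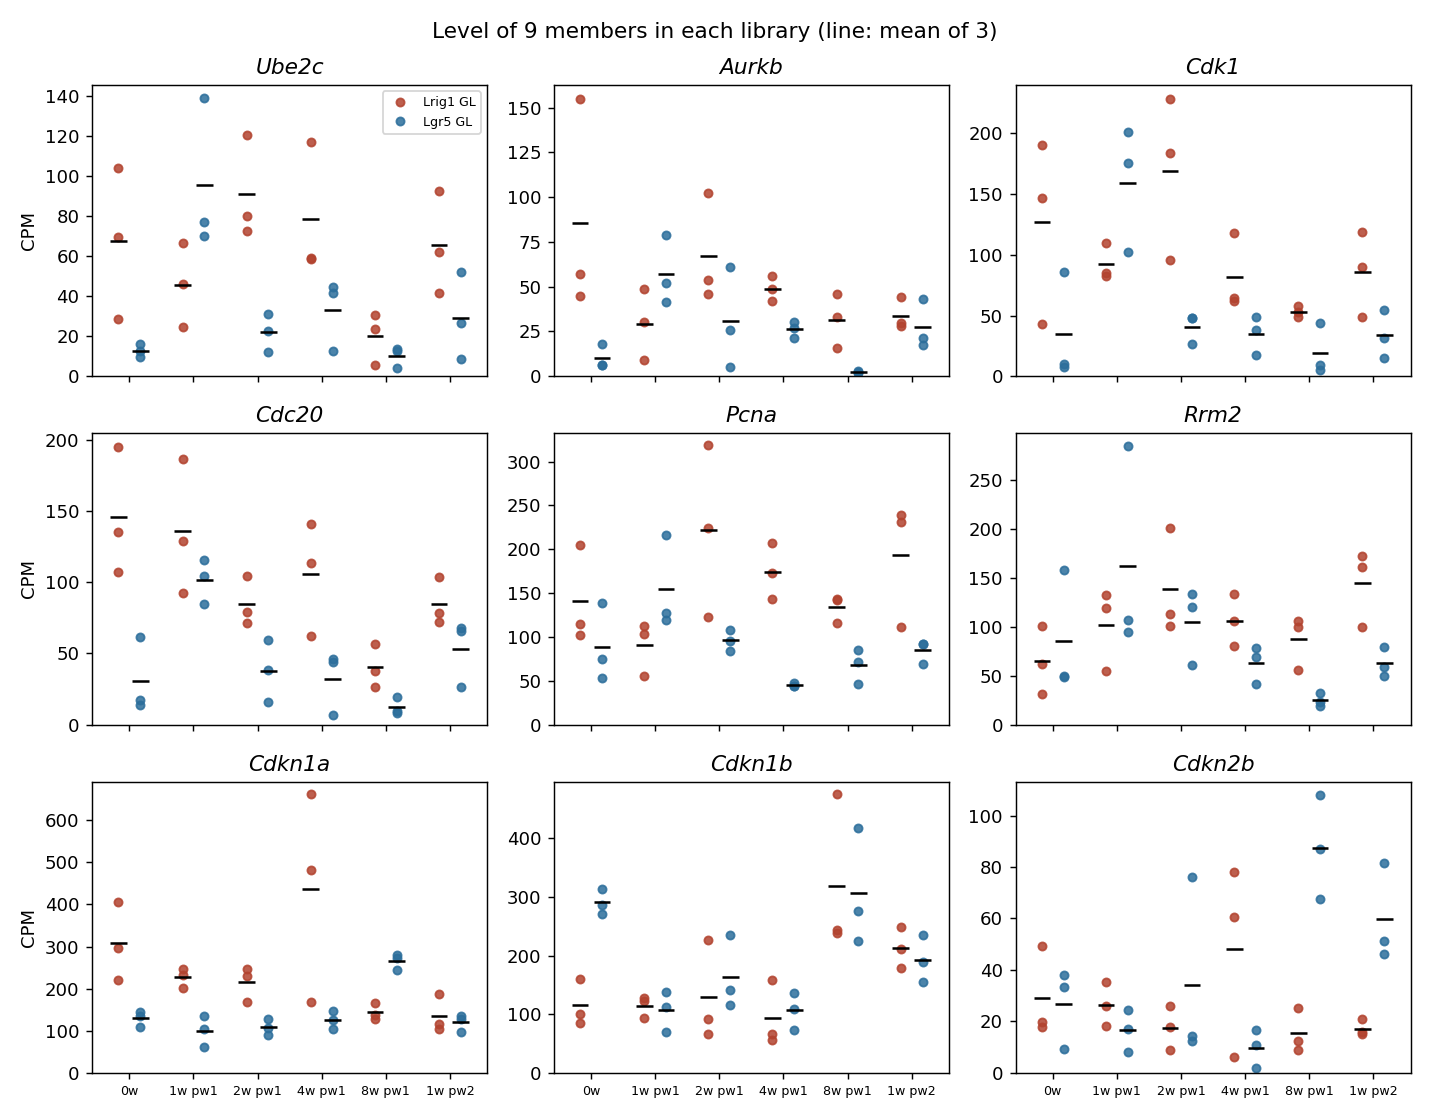
CPM (linear axis from 0) of 9 members in every library of Lrig1 GL (red) and Lgr5 GL (blue) by time. Each point is 1 library and each line the mean of 3, and Lgr5 GL shows Ube2c at 70.2 to 139 CPM at 1w pw1 and Cdkn1b at 271 to 314 CPM at 0w.

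Later times after the first wound gave no call in Lgr5 GL against 0w. At 2w pw1 no member passed and 0% of all genes did, with 7 members at an unadjusted p under 0.05 against 8.79% of all genes and 0 called by DESeq2. At 4w pw1 no member passed against 0.155% of all genes, with 6 at an unadjusted p under 0.05 against 10.7%, and DESeq2 called Cdkn1b. Cdkn1b was at 73.9, 136 and 110 CPM at 4w pw1 (log2 fold change -1.44, SE 0.34, adjusted p = 0.111), below all 3 unwounded libraries. At 1w pw2 no member passed and 0% of all genes did, with 3 members (Cenpe, Cenpf and Aurkb) at an unadjusted p under 0.05 against 6.42%, and DESeq2 called none. Without 0w replicate c no member passed at these times either, and 10, 11 and 13 members reached an unadjusted p under 0.05. The shares of all genes in those fits are not given. The summed level of 6 bulge markers (Lgr5, Cd34, Sox9, Lhx2, Nfatc1 and Postn) was 1873 to 2586 CPM at 2w pw1 and 1409 to 2502 CPM at 4w pw1. Postn had the most counts of the 6 in Lgr5 GL (101979) and in Lrig1 GL (61033). The paper uses it as a marker of the infundibulum, in the upper follicle, so the sum is not a measure of bulge cells alone. At 0w the sum was 3444 to 6537 CPM, and the part of these markers in the result was not tested.

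At 8w pw1 the fitted change was negative in all 20 G2/M members and in 16 of the 19 G1/S members of Lgr5 GL. The median log2 fold change over the 44 was -0.76 against 0.01 over all genes. No member passed and 0% of all genes did, DESeq2 called 0, and 8 members reached an unadjusted p under 0.05 against 5.94% of all genes. All 3 libraries were below all 3 of 0w in 7 of the 44 members against 4.7% of all genes. Rrm2 was at 32.7, 22.9 and 18.9 CPM at 8w pw1, below its 0w libraries (log2 fold change -1.79, SE 0.51, adjusted p = 0.601). Aurkb was at 2.65, 1.71 and 3.02 CPM (log2 fold change -2.02, SE 0.72, adjusted p = 0.737). The direction of the median rested on 1 library: without 0w replicate c it was 0.06 over the 44 members, 0.14 over the G1/S members and -0.79 over the G2/M members, and 4 members reached an unadjusted p under 0.05. The summed fibroblast markers were at 213 to 584 CPM at 8w pw1 against 734 to 1105 CPM at 0w, and their part in the result was not tested.

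The change of these genes from 1 to 4 weeks was compared directly. In Lgr5 GL Pcna fell by 1.77 on the log2 scale from 1w pw1 to 4w pw1 (SE 0.36, adjusted p = 0.0204). It was at 43.8, 44.0 and 47.7 CPM at 4w pw1, a narrow group below the 120 to 217 CPM of 1w pw1. These levels were also below the 53.5 to 139 CPM of 0w, a difference that gave no call. Pcna was the 1 member called of 44 at an adjusted p under 0.05, against 3.15% of all genes, and 9 reached an unadjusted p under 0.05, all lower, against 22.9%. The fitted change was negative in 19 of the 20 G2/M members, with a median of -1.16 against 0.11 over all genes. The median over all genes was 0.23 with DESeq2 size factors, and Pcna was called there too. Leaving out 4w pw1 replicate b or c took Pcna to adjusted p-values of 0.0699 and 0.0877, and 2 surrogate variables to 0.164. At 4w pw1 the summed keratinocyte markers were at 9401 to 12116 CPM against 25633 to 31281 CPM at 1w pw1, and the hair shaft and inner root sheath markers at 624 to 4970 CPM. Their part in the result was not tested.

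The second wound was set against the first at the same interval of 1 week. In Lgr5 GL no member passed between 1w pw2 and 1w pw1, against 0.266% of all genes, and DESeq2 called 0. At an unadjusted p under 0.05 there were 10 members, 7 of them lower, against 16.8% of all genes. The fitted change was negative in 18 of the 20 G2/M members, with a median of -1.12 against 0.09 over all genes. The summed keratinocyte markers were at 18453 to 23627 CPM at 1w pw2 against 25633 to 31281 CPM at 1w pw1, and the hair shaft and inner root sheath markers at 131 to 230 CPM against 31.6 to 103 CPM. Their part in the result was not tested. Ube2c was at 26.7, 8.83 and 52.3 CPM at 1w pw2, all below the 70.2 to 139 CPM of 1w pw1 (log2 fold change -1.72, SE 0.62, adjusted p = 0.19). Cdk1 was at 54.6, 15.2 and 31.6 CPM at 1w pw2, also below its range of 102 to 201 CPM at 1w pw1 (log2 fold change -2.23, SE 0.84, adjusted p = 0.204). E2f1 reached at most 36.9 CPM at 1w pw2 and its libraries overlapped with those of 1w pw1.

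Against 8w pw1, the state just before the second wound, the Lgr5 GL members were higher at 1w pw2 in most cases. The fitted change was positive in all 19 G1/S and all 20 G2/M members, with medians of 1.06 and 2.12 against -0.02 over all genes. Of the 44 members 19 reached an unadjusted p under 0.05, 18 of them higher, against 3.83% of all genes. All 3 libraries at 1w pw2 were above all 3 at 8w pw1 in 19 members, against 6.2% of all genes. No member passed at an adjusted p under 0.05 and 0% of all genes did. DESeq2 called Aurkb and Cdkn1a. Keratinocyte markers summed to 26841 to 29329 CPM at 8w pw1, above the 1w pw2 libraries, and their part in the result was not tested. Aurkb was at 21.1, 17.5 and 43.3 CPM at 1w pw2 (log2 fold change 3.44, SE 0.74, adjusted p = 0.943). Mki67 was at 11.9, 5.61 and 13 CPM at 8w pw1 and at 59.4, 61.5 and 118 CPM at 1w pw2, without overlap (log2 fold change 2.96, SE 0.82).

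In Lrig1 GL 1 member passed in edgeR's test at 8w pw1, Cdc20, the activator of the anaphase-promoting complex. It was at 195, 107 and 135 CPM at 0w and at 26.2, 37.9 and 56.3 CPM at 8w pw1, and fell by 1.86 on the log2 scale (SE 0.40, adjusted p = 0.0251). The groups did not overlap. As 1 of 42 members against 2.82% of all genes, the count was no larger than the background, and DESeq2 called 5 (Ube2c, Cdc20, Cdkn1b, Gins2 and Uhrf1). Leaving out 0w replicate 1 or 8w pw1 replicate a, b or c took its adjusted p to 0.0837, 0.114, 0.0901 and 0.0529, 2 surrogate variables to 0.687 and removal of the GC trend to 0.0844. At 8w pw1, mitochondrial transcripts took 10.9% to 14.4% of the counts against 3.15% to 5.38% at 0w, and the summed keratinocyte markers were at 11233 to 17244 CPM against 19316 to 23446 CPM. The summed upper follicle markers were at 4012 to 5390 CPM against 6986 to 10702 CPM, also without overlap. Their part in the result was not tested.

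Around Cdc20 the other Lrig1 GL members at 8w pw1 were mostly lower than at 0w. Of the 42 tested, 28 had a negative fitted change, with a median of -0.89 against -0.01 over all genes. An unadjusted p under 0.05 was reached by 11 members against 22.9% of all genes, and all 3 libraries were below all 3 of 0w in 4 members against 12.8%. Gins2, a subunit of the GINS complex of the replication fork, was at 127, 9.34 and 89.7 CPM at 0w and at 16.4, 4.89 and 16.1 CPM at 8w pw1 (log2 fold change -2.58, SE 0.80, adjusted p = 0.074). Of its exon bases, 67.3% are shared with Gse1 on the opposite strand, so its counts are uncertain. Ube2c was at 104, 28.8 and 69.8 CPM at 0w and at 5.83, 23.8 and 30.6 CPM at 8w pw1 (log2 fold change -1.76, SE 0.60, adjusted p = 0.0992). Cdk1 was at 191, 43.4 and 147 CPM at 0w and at 57.5, 48.9 and 53.1 CPM at 8w pw1. Mcm2 was at 80.1, 3.25 and 98.6 CPM and at 8.37, 17.1 and 42.3 CPM. In each of Gins2, Ube2c, Cdk1 and Mcm2 the lowest unwounded value was that of replicate 2. Without 0w replicate 2 the median over members was -1.30, 21 reached an unadjusted p under 0.05 and 4 passed: Mcm6, Cdc20, Gins2 and Cdk1. The shares of all genes in that fit are not given, so whether the members gained more than other genes is not shown. Without 0w replicate 1 the median was -0.25, 18 of the 42 were positive, 6 reached an unadjusted p under 0.05 and none passed. With 2 surrogate variables the direction turned, with a median of 0.12 and 23 of the 42 positive.

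The other comparisons of Lrig1 GL with 0w gave no call among the members. At 1w pw1 no member passed against 0.217% of all genes, with 3 (Aurkb, Gins2 and Tpx2) at an unadjusted p under 0.05 against 11% and 0 called by DESeq2. At 2w pw1 no member passed and 0% of all genes did, with 3 (Rrm2, Tpx2 and Gins2) at an unadjusted p under 0.05 against 10.5% and 0 called by DESeq2. At 4w pw1 no member passed against 0.0419% of all genes, with none at an unadjusted p under 0.05 against 8.37% and 0 called by DESeq2. The median log2 fold changes over members were -0.16, 0.18 and 0.25 at these times, and -0.51, -0.14 and -0.12 without 0w replicate 2, so the direction at 2 and 4 weeks rested on that library. Without 0w replicate 1 they were 0.32, 0.78 and 0.53, and with 2 surrogate variables 0.34, 0.61 and 0.39, each of which turned the direction at 1 week. Mcm3, another helicase subunit and the G1/S member with the second smallest time-course p after Gins2, was at 60.0, 8.12 and 45.5 CPM at 0w and at 101, 86.6 and 68.3 CPM at 4w pw1. Summed bulge markers, among which Postn had the most counts, were at 1343 to 2058, 2255 to 2887 and 1659 to 2696 CPM at 1w, 2w and 4w pw1. They were at 3628 to 5166 CPM at 0w, and their part in the result was not tested.

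One week after the second wound, Lrig1 GL cells had no called member against 0w, where 1.23% of all genes passed. At an unadjusted p under 0.05 there were 7 members against 18.5% of all genes, and DESeq2 called Gins2, Top2a and Cdkn1a. Without 0w replicate 2 there were 13, and the median over members went from -0.08 to -0.565, while without 0w replicate 1 it was 0.48. Keratinocyte markers summed to 15939 to 17563 CPM and upper follicle markers to 3808 to 4868 CPM at 1w pw2, both below 0w, and their part in the result was not tested. Top2a was at 88.8, 92.6 and 69.2 CPM at 0w and at 176, 289 and 191 CPM at 1w pw2 (log2 fold change 1.39, SE 0.43, adjusted p = 0.109). Mki67 was at 129, 112 and 138 CPM and at 197, 395 and 297 CPM (log2 fold change 1.23, SE 0.42, adjusted p = 0.138). For both genes all 3 libraries after the second wound were above all 3 unwounded ones. Aurkb ran the other way, at 155, 45.1 and 57.0 CPM at 0w and at 27.8, 44.2 and 29.6 CPM at 1w pw2 (log2 fold change -1.34, SE 0.60). Ccnb1 ranged from 60.5 to 269 CPM at 0w and from 88.7 to 289 CPM at 1w pw2, and Ccne1 from 0 to 84.7 CPM and from 1.42 to 14.5 CPM, with overlapping groups.

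Between times after wounding Lrig1 GL gave no call either. From 1w pw1 to 4w pw1 no member passed and 0% of all genes did, with 3 (Cdkn1a, Pcna and Mcm3) at an unadjusted p under 0.05 against 8.46%. From 1w pw1 to 1w pw2 no member passed and 0% of all genes did, with 2 (Pcna and Top2a) at an unadjusted p under 0.05 against 8.87%. DESeq2 called 0 members in both. Pcna was at 103, 55.4 and 113 CPM at 1w pw1, at 173, 143 and 208 CPM at 4w pw1 and at 111, 232 and 239 CPM at 1w pw2. From 8w pw1 to 1w pw2 no member passed against 0.00699% of all genes, with 5 (Ccnb2, Ube2c, Cdc20, Birc5 and Plk1, all G2/M and higher) at an unadjusted p under 0.05 against 5.72%, and DESeq2 called 0. All 3 libraries at 1w pw2 were above all 3 at 8w pw1 in 14 of the 42 members against 9.02% of all genes. E2f1 was at or below 8.37 CPM in all 6 of these libraries.

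The Cdk inhibitors followed their own courses. Cdkn1a, which encodes p21, was at 144, 136 and 108 CPM in unwounded Lgr5 GL cells, at 135, 61.1 and 103 CPM at 1w pw1 and at 273, 244 and 280 CPM at 8w pw1. The 8 week libraries lay above every other library of that population. The change at 8w pw1 was 1.04 on the log2 scale (SE 0.28, unadjusted p = 0.00184, adjusted p = 0.552, edgeR). At 1w pw2 Cdkn1a was at 134, 97.3 and 128 CPM, a log2 difference of -1.15 from 8w pw1 (SE 0.28). In Lrig1 GL Cdkn1a was at 221, 298 and 407 CPM at 0w, at 166, 128 and 138 CPM at 8w pw1 (log2 fold change -1.10, SE 0.39, adjusted p = 0.113) and at 186, 105 and 115 CPM at 1w pw2. There the 8 week libraries lay below all 3 unwounded ones, the opposite order to that in Lgr5 GL, and the difference between populations at 8w pw1 was not tested.

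Cdkn1b was at 160, 84.9 and 101 CPM at 0w and at 476, 243 and 239 CPM at 8w pw1 in Lrig1 GL, without overlap (log2 fold change 1.47, SE 0.47, adjusted p = 0.0824). In Lgr5 GL it was at 417, 225 and 276 CPM at 8w pw1, a range that contained the 271 to 314 CPM of 0w. Cdkn2b, which encodes the Ink4 inhibitor p15, was at 37.9, 33.2 and 9.31 CPM at 0w and at 87.0, 67.5 and 108 CPM at 8w pw1 in Lgr5 GL (log2 fold change 1.70, SE 0.70, adjusted p = 0.775). It was at 81.4, 51.2 and 46.3 CPM at 1w pw2, all above the 8.15 to 24.6 CPM of 1w pw1. In Lrig1 GL Cdkn2b overlapped between 0w (17.9 to 49.3 CPM) and every later time. Cdkn1c (p57) and Cdkn2a (p16 and p19, which these gene counts do not separate) were near the floor: at most 11 and 25 counts in any Lrig1 GL library, and at most 42 and 35 in any Lgr5 GL library. They were not tested in Lrig1 GL, and in Lgr5 GL neither was called in edgeR's main fit. At such low counts this says little about differences in them.

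The difference between the populations in the change after a wound was tested in 1 model of both tables, over the 13980 genes kept in each, 42 members among them. At 1w pw1 against 0w no member passed at an adjusted p under 0.05, against 0.0572% of all genes. The difference, Lrig1 GL minus Lgr5 GL, was negative in all 20 G2/M members, with a median of -1.68 against 0.01 over all genes. An unadjusted p under 0.05 was reached by 13 members against 15.2% of all genes. Nearest to the threshold were Aurkb, with a change of -1.57 for Lrig1 GL against 2.5 for Lgr5 GL (difference -4.10, 95% interval -6.03 to -2.16, adjusted p = 0.0575), and Ube2c, with changes of -0.55 and 2.91 (difference -3.52, 95% interval -5.35 to -1.68, adjusted p = 0.0743). DESeq2 called these same 2 genes. Without Lrig1 GL 0w replicate 2 edgeR called Ube2c, Rrm1 and Aurkb, without Lrig1 GL 0w replicate 3 Aurkb, and without Lgr5 GL 0w replicate c Cdk1 and Aurkb. Without Lrig1 GL 0w replicate 1 it called 0 members. In Lrig1 GL Aurkb was at 155, 45.1 and 57.0 CPM at 0w and at 30.4, 48.6 and 9.23 CPM at 1w pw1. The median is not given here without single libraries. Summed bulge markers in Lrig1 GL, among which the infundibulum marker Postn had the most counts, were at 1343 to 2058 CPM at 1w pw1. At 0w they were at 3628 to 5166 CPM. In Lgr5 GL these times overlapped, and the part of the markers in the result was not tested.

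**Figure D5:**
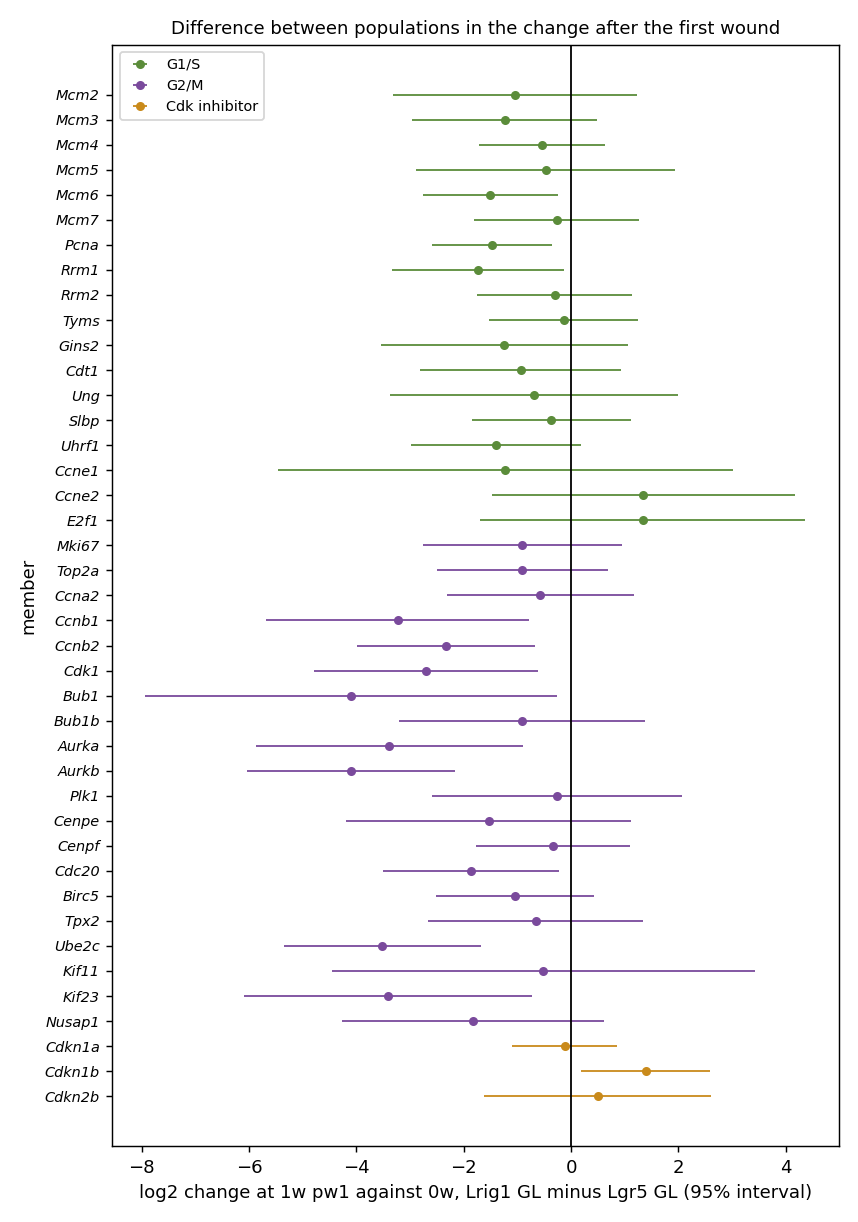
Difference between populations in the log2 change at 1w pw1 against 0w (Lrig1 GL minus Lgr5 GL) for each member with more than 3 counts over the 0w libraries of both, with 95% intervals, in G1/S (green), G2/M (purple) and Cdk inhibitors (orange). All 20 G2/M points lie left of 0, and Aurkb (-4.10) and Ube2c (-3.52) have intervals far from it.

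For the second wound against the first, no member differed between the populations at an adjusted p under 0.05, against 0.107% of all genes, and 10 reached an unadjusted p under 0.05 against 13%. The difference was positive in 19 of the 20 G2/M members, with a median of 1.47. Pcna came nearest, with changes of 1.09 in Lrig1 GL and -0.87 in Lgr5 GL (difference 2.03, 95% interval 0.91 to 3.15, adjusted p = 0.0979), and DESeq2 called it. The libraries at 1w pw1 enter both of these differences. As each population came from its own mouse line, population and line cannot be told apart.

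Other genes of the cell cycle gave the wider setting. Of 86 further cyclins, Cdks, replication and mitosis genes, 1 was called across the time course in each population, close to or below the share of all genes there (1.13% in Lgr5 GL and 1.63% in Lrig1 GL). Ccnd1, the D cyclin of growth-factor response, rose by 1.74 on the log2 scale at 4w pw1 in Lgr5 GL (SE 0.31, adjusted p = 0.0319). Ccnd2, another D cyclin, fell by 1.57 at 1w pw1 in Lrig1 GL (SE 0.27, adjusted p = 0.0167). E2f8, an atypical E2F factor, rose by 3.28 at 1w pw2 in Lrig1 GL (SE 0.74, adjusted p = 0.0389). Each was the 1 gene of this list called in its comparison, where 0.155%, 0.217% and 1.23% of all genes were called. At 1w pw1 in Lgr5 GL, 33 of 35 further mitosis genes had a positive change (median 1.34) and none passed, and at 8w pw1 27 of 35 had a negative one (median -1.17). Both rest on the same 0w libraries as the members, and neither is given without 0w replicate c. Next by the time-course p in Lgr5 GL came Ccnd2, Tk1, Cenpa and Racgap1, and in Lrig1 GL Smc4, Gins1, E2f8 and E2f4, none called in that test. Of 18 p53 targets, Trp53inp1 fell by 2.52 at 1w pw1 in Lgr5 GL (SE 0.43, adjusted p = 0.0136), and Phlda3 and Perp fell by 1.42 and 1.01 from 1w pw1 to 4w pw1, while none of the 17 tested in Lrig1 GL was called. In these comparisons 1.29% and 3.15% of all genes were called, so 1 and 2 of 18 are small counts to set against the background. The other 2 Ink4 genes were not called in any comparison.

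Over the 18 libraries of a population, the mean log2 CPM of the G1/S members and that of the G2/M members were related as a description only, since both come from the same library and depth. In Lrig1 GL Pearson's r was 0.51 and Spearman's rho 0.26, and r fell to 0.27 over the 16 libraries left without the 2 farthest from the G1/S median. In Lgr5 GL r was 0.73, rho 0.67 and r over 16 libraries 0.64.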

How the data were processed

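The authors sorted tdTomato+ cells, isolated mRNA on oligo(dT) beads and made Smart-seq2 libraries. Per the submitters' notes, reads were trimmed with Trim Galore 0.5.0, aligned to mm10/GRCm38 with HISAT2 and counted per gene name over exons with featureCounts, with GENCODE annotation. The authors deposited 1 table of raw counts per population, with replicates kept apart and no strand setting stated.

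From these counts, edgeR 4.0.16 (R 4.3.3) fitted each population alone over its 18 libraries: filterByExpr (minimum count 10), TMM scaling, quasi-likelihood F tests and Benjamini-Hochberg adjustment over all genes tested. A call needed an adjusted p under 0.05 and, across the time course and against 0w, a change of more than 1 on the log2 scale in either direction. Fold changes used a prior count of 0.125. The standard error is the log2 fold change divided by the square root of F. The difference between populations was a contrast in 1 model over 13980 shared genes. The fits were checked on simulated counts. Alternatives were DESeq2 1.42.0, its size factors, no filter, 2 surrogate variables (sva 3.50.0; the study's number is not given in the sources used here), a GC trend removed, Gm12415 removed, a replicate block and each library left out. Promoters were RefSeq's; gene overlaps came from GENCODE.

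The members, the other lists and the tests were chosen with earlier results of these data known. Genes named with values were Mcm2, Pcna, Rrm2, Ccne1, E2f1, Mki67, Top2a, Ccnb1, Cdk1 and the 5 inhibitors, every called member, the 2 members of each phase group with the smallest time-course p per population, and the 5 such genes of the other cell cycle list. Cdc6 was added after its values were seen, for its low counts.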

Additional observations from a re-analysis of the deposited data

How the results depend on the processing

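With counts of members called out of 44 as the measure, DESeq2 size factors, removal of Gm12415 and the replicate block left all the counts they could be run for within 1.5 times. DESeq2's own test gave other counts in 10 of 20 results. In Lrig1 GL it called 4 across the time course (0 in edgeR), 5 at 8w pw1 (1) and 3 at 1w pw2 (0) against 0w. In Lgr5 GL it called 23 across the time course (4), 8 at 1w pw1 (2) and 1 at 4w pw1 (0) against 0w, 3 at 4w against 1w pw1 (1) and 2 at 1w pw2 against 8w pw1 (0). Between populations it called 2 for the first wound and 1 for the second against the first (0 in both). With 2 surrogate variables the count was 0 at 8w pw1 in Lrig1 GL, and in Lgr5 GL 1 across the time course, 0 at 1w pw1 against 0w and 0 at 4w against 1w pw1. With the GC trend removed it was 0 at 8w pw1 in Lrig1 GL and 3 at 4w against 1w pw1 in Lgr5 GL. With no filter it was 2 across the time course in Lgr5 GL. The cause of these differences was not tested. The share of all genes called is not given for DESeq2 or the other alternatives, so their counts of members cannot be set against a background.

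Leaving out 1 library gave 0 to 8 called across the time course, 0 to 5 at 1w pw1 against 0w and 0 to 1 at 4w against 1w pw1 in Lgr5 GL. In Lrig1 GL it gave 0 to 1 across the time course and 0 to 4 at 8w pw1, and between populations 0 to 3 for the first wound. The other counts stayed at 0. No share of all genes is given for these fits. For the named members with an unadjusted p under 0.05 in a comparison of 2 times or of the populations, no alternative turned the direction. These pairs were picked by their p in the main fit of the same libraries, which favours a stable direction. Medians over members did turn in some settings, as given above. The median over all genes moved by over 0.1 with DESeq2 size factors for 4w against 1w pw1 in Lgr5 GL (0.105 to 0.233) and for the first wound between populations (0.01 to 0.135), and with the GC trend removed in several comparisons.

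The replicate block could be fitted for 5 results, where both groups carry label numbers, and called 0 members in each, as without it. The labels do not say whether same-numbered libraries share a mouse. Such libraries did not deviate together: the correlation of their deviations from the group means averaged 0.00369 over 9 pairs in Lrig1 GL (-0.0576 to 0.13). In Lgr5 GL it averaged -0.0155 over 3 pairs (-0.0716 to 0.0174), and the numbers were not taken as pairs.

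With 3 libraries a group and a common biological coefficient of variation of 0.698 in Lrig1 GL and 0.662 in Lgr5 GL, single libraries decided most calls. A floor of 3 counts was at most 3.39 CPM in any library, and Cdc6, Ccne1, Kif11, Cdkn1c and Cdkn2a, among others, were at or under it in some libraries.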
